A study of Mus musculus with 2 samples.

Results

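The 7 genes described here, Alox12b, Aloxe3, Cers3, Elovl4, Abca12, Pnpla1 and Cyp4f39, build and export the ceramide lipids that waterproof the epidermis. They were taken by symbol from the deposited gene list, which holds 33904 genes, and each symbol matched 1 row in both libraries. The study profiled dorsal skin by single-cell RNA-seq in 1 vehicle library (Ctrl) and 1 library from a model of atopic dermatitis (AD). All mice were C57BL/6J females of 7 weeks whose back had been depilated 24 hours before the first application. Ctrl skin received ethanol daily, AD skin received 4.5 nmol MC903 (calcipotriol, an analogue of vitamin D) in ethanol per application, and both were taken on day 10. No transgene or mutation is named for either group, and the number of mice behind each library is not given in the sources used here. With 1 library per condition no test was possible, and every interval below is an exact 95% interval that covers counting error only.

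The outermost layer of the skin is sealed by ceramides whose fatty acid is far longer than in other tissues. ELOVL4 lengthens this fatty acid, CYP4F39 hydroxylates its end, CERS3 joins it to the sphingoid base, and PNPLA1 links linoleate to the hydroxyl group, which gives acylceramide. ABCA12 loads the glucosylated lipid into lamellar granules, and the lipoxygenases 12R-LOX (Alox12b) and eLOX3 (Aloxe3) then oxidise the linoleate in sequence so that the ceramide can be bound to the cornified envelope. Loss of each of these steps is known to cause ichthyosis or a lethal barrier defect. Keratinocytes make the enzymes as they leave the basal layer (Krt5, Krt14), pass the spinous layer (Krt1, Krt10) and reach the granular layer (Lor, Flg2).

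In the GENCODE M21 annotation of GRCm38, Alox12b (ENSMUSG00000032807) spans chr11:69156989-69169792 and its partner Aloxe3 (ENSMUSG00000020892) spans chr11:69125896-69149115 on the same plus strand, so the lipoxygenases of the pathway are neighbours. Cers3 lies at chr7:66743504-66823691 on the plus strand and Elovl4 at chr9:83778692-83806277 on the minus strand. Abca12 lies at chr1:71242276-71414910 on the minus strand, Pnpla1 at chr17:28858411-28890309 on the plus strand and Cyp4f39 at chr17:32452723-32493320 on the plus strand. Pnpla1 overlaps the antisense gene Pnpla1os, and how the counting treated strand was not given in the sources used here, so reads of that overlap may be shared.

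Promoter windows of 250 bases before and 50 after the start were in the RefSeq table of GRCm38.p6 for 6 of the 7 genes, all but Aloxe3. The first 280 bases of 3 of them are shown, since these genes had the most different distributions below. Alox12b was nearly restricted to the cells named granular, Cers3 was also found in cells named basal and Elovl4 also in sebocytes. The windows are chr11:69156822-69157101 (plus strand), chr7:66743254-66743533 (plus strand) and chr9:83806276-83806555 (minus strand), each printed 5′ to 3′. The RefSeq starts of Alox12b and Elovl4 differ from the GENCODE starts given above. Capitals mark the AGGTCA hexamer of nuclear receptors in Cers3, which lies 122 bases before the start, and the CCAAT box in Elovl4, read on the opposite strand as ATTGG.
Alox12b: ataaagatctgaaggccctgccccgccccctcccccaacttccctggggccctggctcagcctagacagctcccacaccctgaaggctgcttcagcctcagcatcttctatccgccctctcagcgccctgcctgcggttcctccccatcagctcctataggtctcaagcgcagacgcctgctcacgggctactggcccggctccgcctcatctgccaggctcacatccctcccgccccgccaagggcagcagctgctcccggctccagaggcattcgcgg
Cers3: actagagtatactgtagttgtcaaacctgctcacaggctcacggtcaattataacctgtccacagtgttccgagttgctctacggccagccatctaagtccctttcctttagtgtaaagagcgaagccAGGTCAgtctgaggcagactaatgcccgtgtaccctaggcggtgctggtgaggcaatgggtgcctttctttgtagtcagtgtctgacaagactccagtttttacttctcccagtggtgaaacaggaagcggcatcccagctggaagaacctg
Elovl4: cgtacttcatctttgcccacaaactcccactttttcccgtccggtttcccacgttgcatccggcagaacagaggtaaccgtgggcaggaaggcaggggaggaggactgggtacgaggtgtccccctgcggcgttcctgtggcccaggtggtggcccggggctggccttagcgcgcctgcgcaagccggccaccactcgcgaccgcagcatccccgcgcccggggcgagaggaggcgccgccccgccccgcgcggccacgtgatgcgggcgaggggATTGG
On both strands of the 300-base windows, AGGTCA was found in 1 of the 6 genes (16.3% of all 32851 promoters hold it) and CCAAT in 2, Elovl4 and Pnpla1 (37.4% of all). The grainyhead motif AACCNGTT (2.09% of all promoters), the AP-1 motif TGANTCA (7.81%) and TATAAA (13.6%) were found in 0 of the 6 windows. None of these counts bears on whether a factor binds there.

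The unit of every level below is CPM, which scales a gene's summed UMIs to 1000000 UMIs of the cell class they came from. A UMI marks 1 captured transcript molecule at its 3′ end. The deposited matrices contained 12598 Ctrl barcodes (125184653 UMIs) and 8778 AD barcodes (76106062 UMIs). Of these, 11399 and 8179 passed the limits on genes and mitochondrial UMIs that the methods state, with medians of 7813 and 6330 UMIs. The libraries shared 35 barcodes. Clusters were named again from marker genes, and the resulting keratinocytes made up 19.8% of the Ctrl cells (2261) but 5.04% of the AD cells (412). Among them, 282 Ctrl and 185 AD cells were named basal, 159 and 0 suprabasal, 128 and 1 granular, 73 and 0 sebocytes, and 695 and 1 hair matrix or shaft cells. A further 3 Ctrl and 181 AD cells were upper follicle-like, and 833 and 43 stayed in unnamed clusters, which remained counted as keratinocytes. The layers of the interfollicular epidermis above the basal one were therefore represented in AD by 1 cell, and no ratio between the libraries was formed for them.

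The basal and suprabasal Ctrl cells carried the keratins of their names, and the granular class was mixed. Basal cells had 2425 CPM of Krt5 and 139 of Krt10, suprabasal cells 136 of Krt5 and 28270 of Krt10, and granular cells 15.8 of Krt5, 33697 of Krt10 and 10069 of Lor. The Lor level rested on some of the granular cells, whose median was 594 CPM with a lower quartile of 0. Granular cells also had 1122 CPM of Krt79 and 1259 of Krt17, markers of the upper follicle, against 58.4 and 136 CPM in suprabasal cells, and the part of such cells in the granular values was not tested. The basal cells of both libraries also carried markers of the outer root sheath and bulge, with Sox9 at 839 CPM in Ctrl and 1131 in AD and Lhx2 at 494 and 227 CPM. Krt17 was at 2550 CPM in Ctrl basal cells, above their Krt5, and at 576 CPM in AD. The basal class thus held follicle cells as well as, or in place of, interfollicular ones. It rests on different clusters in the libraries, since 279 of the 282 Ctrl cells came from a cluster without AD cells and all 185 AD cells from another with 3 Ctrl cells. Where layers are named below, these classes are meant.

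In Ctrl skin all 7 genes stood higher above the basal layer. The summed level of the genes was 18.5 CPM in basal cells (62 UMIs, 14.2 to 23.8), 1087 CPM in suprabasal cells (2846 UMIs, 1047 to 1128) and 2499 CPM in granular cells (9009 UMIs, 2448 to 2551). Taking suprabasal and granular cells together, the log2 ratio over basal cells was 6.68 (6.32 to 7.07). A gene was counted as higher when it differed by more than 2-fold with 1 CPM added and its mean over both sides was at least 10 CPM. All 7 genes met this, against 12.9% of the 8532 genes above the same floor, whose median log2 ratio was −0.57. All 7 were below 10 CPM in basal cells, so they passed the floor through the upper layers alone. The floor itself thus made a count as higher likely for them. The ratio of the sum was 5.69 without predicted doublets. It was 2.39 when every keratinocyte was placed by its 4 keratins alone, which moved most follicle cells into the basal side. Sebocytes were placed by this rule too, and as a sum they had 2746 UMIs of Krt14 against 61 of Krt10. They held 5433 Elovl4 UMIs, against 18 in the basal class, and their part in this value was not tested. From the suprabasal to the granular layer 5 of 7 were higher by the same measure, against 9.61% of 7046 genes, and Abca12 and Cyp4f39 stayed just under 2-fold.

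**Figure D1:**
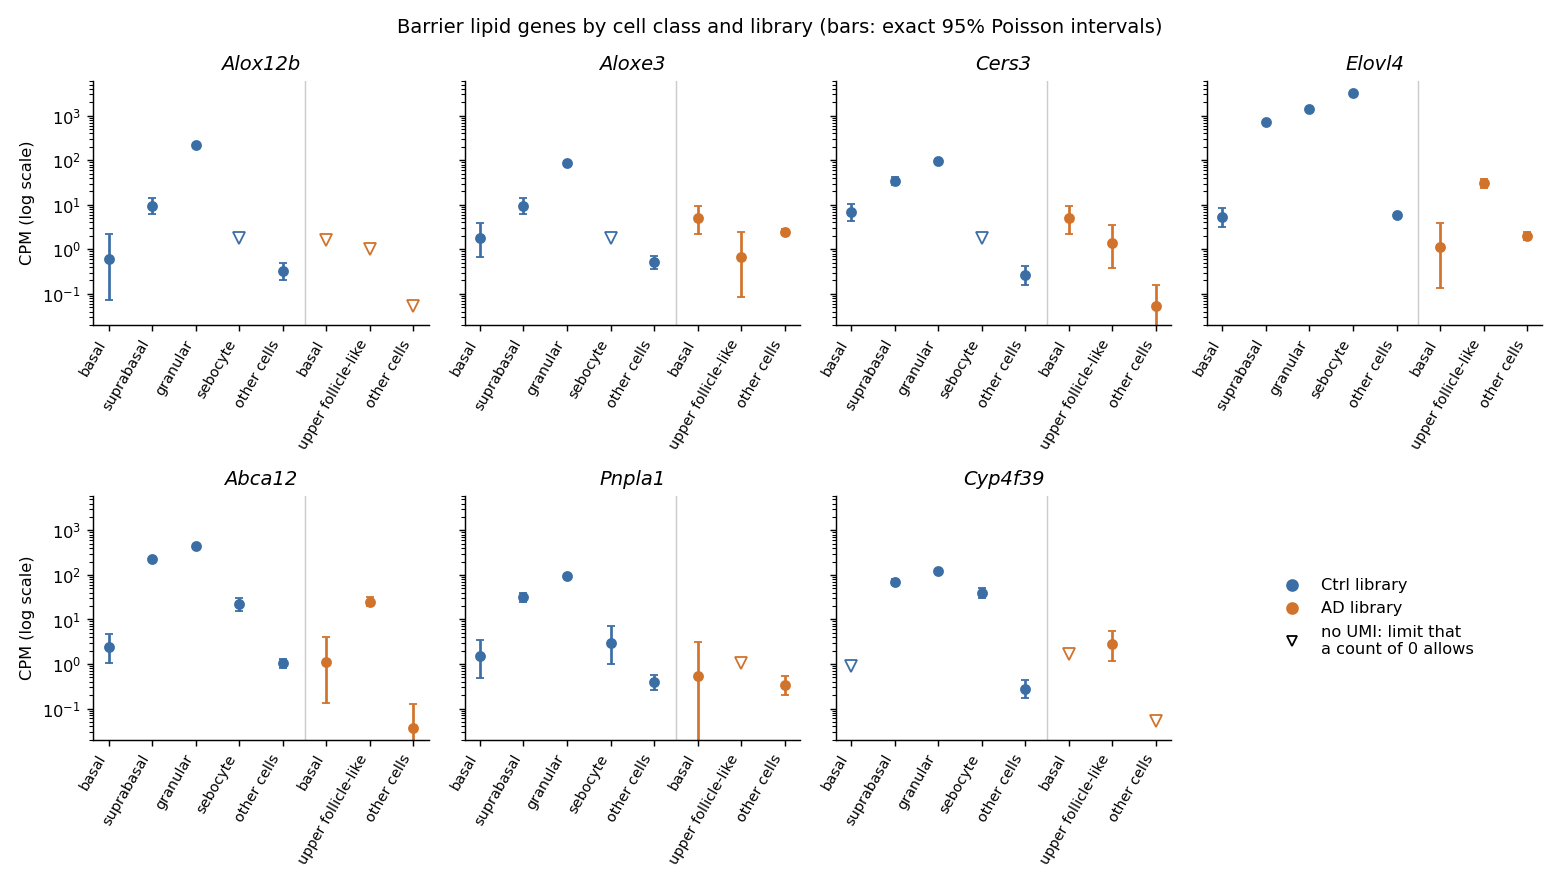
Level of each gene in CPM (log axis) by cell class in the Ctrl (blue) and AD (orange) library. Points are sums over the cells of a class, bars are exact 95% Poisson intervals and open triangles give the limit that a count of 0 allows. In Ctrl every gene climbs from basal to granular cells, and Elovl4 is also at 3279 CPM in sebocytes, whereas no AD class drawn exceeds 30.3 CPM of any gene.

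Elovl4, the elongase, was at 5.38 CPM in basal cells (18 UMIs), 706 in suprabasal cells (1848 UMIs, 674 to 739) and 1424 in granular cells (5134 UMIs, 1386 to 1464). The log2 ratio of the upper layers over basal cells was 7.70 (7.04 to 8.46), and the further step from suprabasal to granular cells was 1.01 (0.94 to 1.09). Its basal level was no higher than the 5.83 CPM of Ctrl cells other than keratinocytes. The part of free RNA in the basal UMIs was not tested. The ratio between the suprabasal and basal levels was larger than that between the granular and suprabasal levels.

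Cyp4f39, the hydroxylase, had 0 UMIs in 282 basal cells, which allows up to 0.897 CPM, 181 UMIs in suprabasal cells (69.1 CPM, 59.4 to 80.0) and 453 in granular cells (126 CPM, 114 to 138). Set against that limit, the upper layers were at least 6.83 higher on the log2 scale. The step from suprabasal to granular was the smallest of the 7 genes, at 0.86 (0.61 to 1.12).

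Cers3, the ceramide synthase for very long acyl chains, had the smallest ratio between the layers in these classes, though its interval overlapped that of Aloxe3. With classes set by the 4 keratins, which also placed the sebocytes, Elovl4 (1.83, with 1 CPM added) lay below Cers3 (3.07). Cers3 was at 6.88 CPM in basal cells (23 UMIs, 4.36 to 10.3), 34.8 in suprabasal cells (91 UMIs) and 96.0 in granular cells (346 UMIs). The upper layers exceeded the basal one by 3.35 on the log2 scale (2.75 to 4.02). Unlike Elovl4, its basal level lay above the 0.267 CPM of other Ctrl cells (0.161 to 0.418). At least 1 Cers3 UMI was found in 7.80% of basal cells (4.95 to 11.6) at a median of 10599.5 UMIs, and in 0.303% of fibroblasts (0.180 to 0.478) at a median of 8476.5. Hair matrix and shaft cells stood at 4.93 CPM (51 UMIs, 3.67 to 6.48), within the interval of the basal value.

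Pnpla1, the transacylase of the last step to acylceramide, was at 1.5 CPM in basal cells (5 UMIs), 31.3 in suprabasal cells (82 UMIs) and 94.3 in granular cells (340 UMIs). The log2 ratio of the upper layers over basal cells was 5.50 (4.27 to 7.13). Abca12, the lipid transporter of lamellar granules, was at 2.39 CPM in basal cells (8 UMIs), 227 in suprabasal cells (594 UMIs) and 452 in granular cells (1631 UMIs), a log2 ratio of 7.22 (6.24 to 8.44). All 128 granular cells had an Abca12 UMI, and 139 of 159 suprabasal cells did.

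The lipoxygenases were concentrated in the granular layer more than the other genes. Alox12b had 2 UMIs in basal cells (0.598 CPM), 25 in suprabasal cells (9.55 CPM, 6.18 to 14.1) and 787 in granular cells (218 CPM, 203 to 234). Aloxe3 had 6 UMIs in basal cells (1.79 CPM), 25 in suprabasal cells (9.55 CPM, 6.18 to 14.1) and 318 in granular cells (88.2 CPM, 78.8 to 98.5). The step from suprabasal to granular cells was 4.52 on the log2 scale for Alox12b (3.94 to 5.15) and 3.21 for Aloxe3 (2.62 to 3.86). For the other 5 genes it ranged from 0.86 to 1.59, and their intervals lay below those of the lipoxygenases.

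Seen cell by cell, a granular cell held a UMI of a median of 6 of the 7 genes, a suprabasal cell of 3 and a basal cell of 0. All 7 were found together in 63 of 128 granular cells and in 2 of 159 suprabasal cells, and none in 237 of 282 basal cells. Median depth climbed with the layers, from 10599.5 UMIs in basal to 16903 in suprabasal and 30420 in granular cells. Each cell was therefore also thinned to 1000 random UMIs, which left out 1, 11 and 1 cells that were too shallow. Elovl4 was then found in 0.356%, 50% and 73.2% of basal, suprabasal and granular cells, against 0.652% of Ctrl fibroblasts. Abca12 was found in 0%, 16.9% and 31.5%, against 0.137%, and Alox12b in 0%, 0% and 15.7%, against 0.0171%.

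When basal, suprabasal and granular Ctrl cells were ordered by the share of Krt1 and Krt10 among their Krt1, Krt10, Krt5 and Krt14 UMIs, 269 cells had a share under 0.1, 276 had at least 0.9 and 23 lay between. Elovl4 stood at 5.52 CPM in the lowest bin and 1137 CPM in the highest. Alox12b stood at 7.36 CPM (24 UMIs) and 128 CPM. The lowest bin also held 649 CPM of Lor, so some of its cells were of the granular class, with a low share of Krt1 and Krt10.

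Outside the epidermal layers, sebocytes were the main Ctrl site of Elovl4. They held 5433 Elovl4 UMIs, or 3279 CPM (3193 to 3368), above the granular level, but only 37 of 73 sebocytes had any, and the summed level of the 7 genes per sebocyte ran from 0 over a median of 54.0 to a highest value of 49495 CPM. Cyp4f39 reached 39.2 CPM there (65 UMIs) and Abca12 22.3 CPM (37 UMIs). Pnpla1 had 5 UMIs, and Alox12b, Aloxe3 and Cers3 had 0, which allows up to 1.81 CPM each. Sebocytes thus held the elongase and the hydroxylase without a detected UMI of the ceramide synthase or the lipoxygenases. An unnamed cluster of 184 Ctrl cells led by Krt79, Krt17 and Defb6, genes of the upper follicle, had all 7 genes, with Elovl4 at 530 CPM, Abca12 at 152, Cyp4f39 at 58.5, Pnpla1 at 50.2, Cers3 at 19.2 and Alox12b and Aloxe3 at 7.45 CPM each. Its order of genes was close to that of suprabasal cells.

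In AD basal cells few UMIs of the 7 genes were found. Their sum was 23 UMIs or 12.6 CPM (8.0 to 18.9), against 62 UMIs or 18.5 CPM in Ctrl. The log2 ratio was −0.55 (−1.31 to 0.16), and its interval includes no difference. The value was −1.45 without predicted doublets, which were called in Ctrl only. It was −2.34 with all deposited barcodes and −2.56 with classes set by the 4 keratins, which also placed the sebocytes. With each library clustered alone 0 AD cells were named basal, so this ratio had no value there. In the joint clustering Aloxe3 and Cers3 had 9 UMIs each in AD basal cells (4.94 CPM). Elovl4 and Abca12 had 2 each, Pnpla1 had 1 and Alox12b and Cyp4f39 had 0. None of the 7 reached a mean of 10 CPM, so 0 could be counted in either direction, where 15.3% of 8679 genes were lower and 7.45% higher. Elovl4 was at 1.10 CPM (0.13 to 3.97) in AD and 5.38 CPM (3.19 to 8.51) in Ctrl basal cells, and its level in cells other than keratinocytes was 1.98 and 5.83 CPM, so the background moved the same way. The part of this background in the basal values was not tested.

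The AD upper follicle-like cells carried Elovl4 at 30.3 CPM (88 UMIs, 24.3 to 37.3) and Abca12 at 25.1 CPM (73 UMIs, 19.7 to 31.6), above the 1.98 and 0.0357 CPM of AD cells other than keratinocytes. Cyp4f39 had 8 UMIs there, Cers3 4, Aloxe3 2, and Alox12b and Pnpla1 0. These cells had Krt14 at 4442 CPM, Krt79 at 695 CPM and Krt10 at 20.7 CPM. They also had 2057 CPM of Cyp24a1, which encodes the vitamin D hydroxylase induced by MC903, and 392 CPM of Tslp, an epithelial cytokine of allergic inflammation. The sub-cluster that held 141 of these AD cells also carried the sebocyte markers Mgst1, Cidea and Plin2. The part of sebocyte-like cells in the Elovl4 level was not tested. Only 30 of the 181 cells had an Elovl4 UMI and 39 an Abca12 UMI. Only 3 Ctrl cells had this name among the cells within the limits. When all barcodes were clustered together, 178 Ctrl and 218 AD cells within the limits were upper follicle-like. The Ctrl cells then had 37 Elovl4 UMIs (16.0 CPM, 11.3 to 22.1) and 95 Abca12 UMIs (41.1 CPM, 33.3 to 50.3). The AD cells had 112 Elovl4 UMIs (31.0 CPM, 25.6 to 37.3) and also 95 Abca12 UMIs (26.3 CPM, 21.3 to 32.2). Among these cells within the limits the intervals of each gene lay apart, with Elovl4 higher and Abca12 lower in AD. The limits removed another 35 Ctrl and 107 AD barcodes of the same class. In those Abca12 was at 44.3 CPM in Ctrl (37 UMIs) and 50.3 CPM in AD (329 UMIs), with overlapping intervals. Elovl4 was at 22.7 CPM in Ctrl (19 UMIs) and 44.6 CPM in AD (292 UMIs), with intervals apart. The lower Abca12 level in AD was thus seen only within the limits.

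The 1 granular AD cell carried all 7 genes. It had 51903 UMIs and 5869 genes, its barcode did not occur in Ctrl, and it held 40 Cyp24a1 UMIs, a gene with a median of 0 in Ctrl granular cells. It had 6 UMIs of Alox12b, 7 of Aloxe3, 3 of Cers3, 33 of Elovl4, 14 of Abca12, 4 of Pnpla1 and 2 of Cyp4f39. Elovl4 was at 636 CPM, below the lower quartile of 1116 CPM of the 128 Ctrl granular cells, and Aloxe3 at 135 CPM was above their upper quartile of 123 CPM. The other 5 genes lay between the Ctrl quartiles, for example Alox12b at 116 CPM (75.5 to 231) and Abca12 at 270 CPM (255 to 563). Per 1000 Krt10 UMIs the cell had 15.1 Elovl4 UMIs (10.4 to 21.2), against 42.3 in Ctrl granular cells (41.1 to 43.4). This cell held all 6 Alox12b UMIs of the whole AD library, so the values describe 1 cell and no AD layer.

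**Figure D2:**
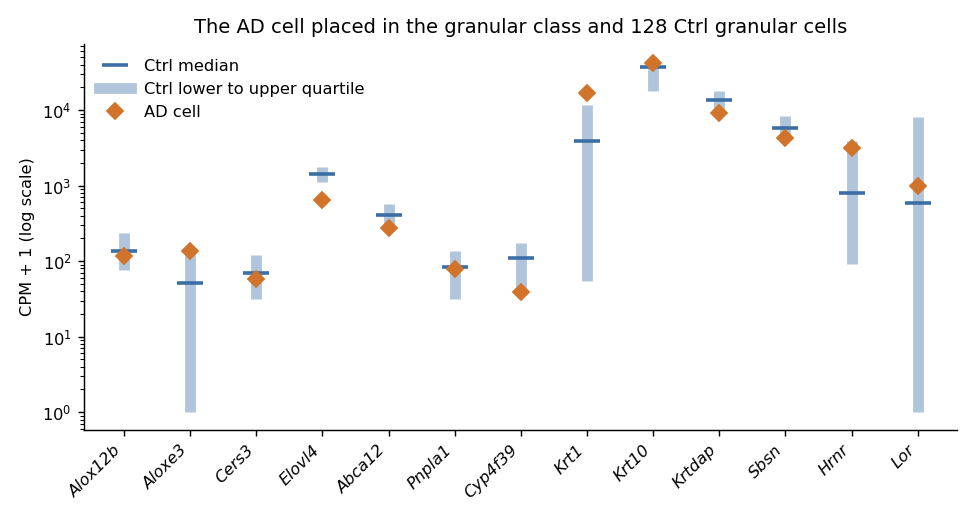
The AD cell placed in the granular class (diamonds) and the 128 Ctrl granular cells (dark line: median; pale bar: lower to upper quartile), as CPM + 1 on a log axis, for the 7 barrier genes and 6 layer markers. Elovl4 of the AD cell lies at 636 CPM, below the Ctrl quartiles, while Krt1 lies above them at 16685 CPM.

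Over all keratinocytes the 7 genes stood at 606 CPM in Ctrl (20689 UMIs) and 57.5 CPM in AD (328 UMIs), a log2 ratio of −3.40 (−3.56 to −3.24), or −2.72 with all deposited barcodes. Fewer cells of a layer and less RNA per cell cannot be told apart in this sum, and the suprabasal and granular layers made up 287 of 2261 Ctrl and 1 of 412 AD keratinocytes. Sebocytes, at a summed level of 3344 CPM, were 73 of the Ctrl and 0 of the AD keratinocytes, and they held 5540 of the 20689 Ctrl UMIs and 5433 of the 14314 of Elovl4. The keratinocytes also included unnamed clusters led by genes of fibroblasts, pericytes, lymphatic endothelium or T cells. Col1a1, a fibroblast marker, was at 480 CPM over all Ctrl and 21.9 CPM over all AD keratinocytes. Alox12b was at 24.8 and 1.05 CPM (log2 ratio −4.56, −6.01 to −3.43), Elovl4 at 419 and 26.8 (−3.96, −4.20 to −3.73), Cyp4f39 at 26.7 and 2.28 (−3.55, −4.47 to −2.77), Cers3 at 18.6 and 2.81 (−2.73, −3.55 to −2.02) and Abca12 at 86.8 and 20 (−2.12, −2.40 to −1.85). These 5 passed the floor and all 5 were lower in AD, against 9.88% of 8713 genes. Alox12b, Cyp4f39 and Cers3 passed it through Ctrl alone, so at their AD levels the floor itself fixed the count as lower. Pnpla1 at 18.2 and 1.05 CPM and Aloxe3 at 11.5 and 3.51 CPM missed the floor on their mean.

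Summed over all deposited barcodes, before any limit, the 7 genes had 27066 UMIs in Ctrl (216 CPM) and 1548 in AD (20.3 CPM), a log2 ratio of −3.41 (−3.48 to −3.34). With a floor of 1 CPM, 6 of 7 were lower in AD, against 11.7% of 14652 genes. Of these, Alox12b, Cers3, Pnpla1 and Cyp4f39 were under 1 CPM in AD and passed this floor through Ctrl alone. Alox12b had 998 UMIs in Ctrl and 6 in AD (−6.66, −8.11 to −5.53). Elovl4 had 19315 and 753 (−3.96), Abca12 3629 and 455 (−2.28), Cers3 764 and 54 (−3.10), Pnpla1 742 and 35 (−3.69) and Cyp4f39 1099 and 51 (−3.71). Aloxe3 was the exception, with 519 and 194 UMIs and a log2 ratio of −0.70 (−0.95 to −0.46), an interval that lies apart from those of the other 6 genes.

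Most AD UMIs of Aloxe3 came from other cells. In Ctrl, keratinocytes held 97.1% of the UMIs of the 7 genes in cells within the limits, from 91.4% for Aloxe3 to 97.9% for Cyp4f39. In AD the share was 54.6%, and it differed between the genes. Keratinocytes held all 6 Alox12b and all 13 Cyp4f39 UMIs and 98.3% of the 116 Abca12 UMIs, but 58.0% of the 264 Elovl4 UMIs, 24.0% of the 25 Pnpla1 UMIs (9.36 to 45.1) and 12.7% of the 158 Aloxe3 UMIs (7.91 to 18.9).

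AD adipocytes had 47 Aloxe3 UMIs, or 19.6 CPM (14.4 to 26.0), in 31 of 171 cells. None of the other 6 genes had a UMI in these cells, which allows up to 1.25 CPM each. Adipoq, the adipocyte hormone, was at 538 CPM and Krt14 at 12.1 CPM there. Ctrl had 2 adipocytes, so no Ctrl level stands beside this one. AD fibroblasts had 77 Aloxe3 UMIs, or 1.98 CPM (1.56 to 2.47), and 0 of Alox12b, whereas Ctrl fibroblasts had 25 Aloxe3 UMIs (0.456 CPM, 0.295 to 0.673) and 19 of Alox12b (0.347 CPM, 0.209 to 0.541). Aloxe3 UMIs thus outnumbered Alox12b UMIs in AD adipocytes and AD fibroblasts, the opposite of the 318 and 787 of Ctrl granular cells. In Ctrl fibroblasts the intervals of these genes overlapped.

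**Figure D3:**
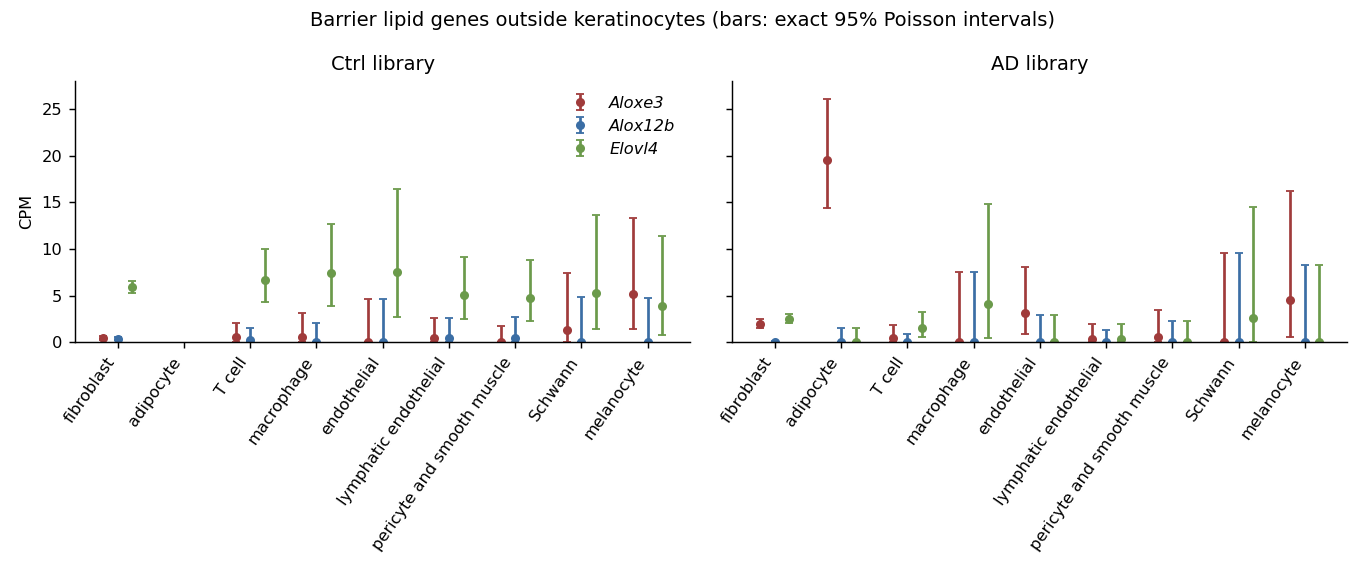
Level in CPM of Aloxe3, Alox12b and Elovl4 in cell types other than keratinocytes, in the Ctrl (left) and AD (right) library, with exact 95% Poisson intervals as bars; only types with at least 20 cells in the library are drawn. Aloxe3 in AD adipocytes, at 19.6 CPM, is the highest point in either panel, and Elovl4 lies at a like low level across the Ctrl types.

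Elovl4 had a low level in every large Ctrl type, at 5.89 CPM in fibroblasts (323 UMIs, 5.27 to 6.57), 6.71 in T cells (4.30 to 9.98) and 7.40 in macrophages (3.94 to 12.6), with overlapping intervals. Within Ctrl fibroblasts its level ran from 2.88 CPM (2.06 to 3.92) in a cluster of 1336 cells to 13.7 CPM (10.8 to 17.1) in a cluster of 767 cells led by F5, Rspo3 and Corin. The cluster of 767 cells also carried the keratinocyte markers Krt5, Krt14, Krt1 and Krt10. Per 1000 Krt10 UMIs, Ctrl fibroblasts had 66.3 Elovl4 UMIs (59.3 to 74.0), T cells 74.8 (47.9 to 111) and macrophages 90.9 (48.4 to 155). The part of keratinocyte RNA in these levels was not tested. In AD Elovl4 was at 2.52 CPM in fibroblasts (98 UMIs) and 1.51 in T cells (6 UMIs). Of the 98 UMIs in AD fibroblasts, 51 lay in 1 cluster of 718 AD cells, at 16.9 CPM (12.6 to 22.2), which was led by Klhl33, Rasd1 and Spp1 and had a median of 3076.5 UMIs.

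The limits on cells left out much of the AD signal of these genes. The AD barcodes that the limits removed held 947 of the 1548 UMIs of the 7 genes, or 61.2%, and 925 of these lay in 229 barcodes with over 6000 genes. In Ctrl the removed barcodes held 21.3%. Of the UMIs of all genes, removed barcodes held 19.0% in AD and 16.0% in Ctrl. With all barcodes clustered together, 107 of the removed AD barcodes were upper follicle-like keratinocytes with a median of 54362 UMIs, and they held 714 UMIs. By gene, 64.9% of the AD Elovl4 UMIs and 74.5% of the AD Abca12 UMIs lay in removed barcodes, while for Aloxe3 it was 18.6% and for Alox12b 0 of 6 UMIs.

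**Figure D4:**
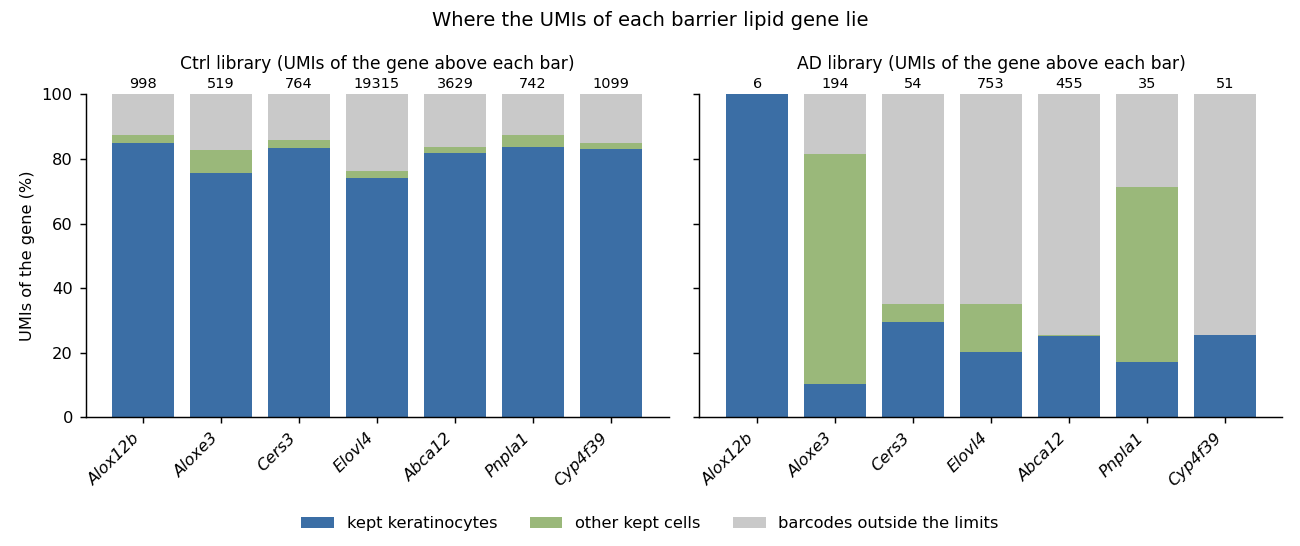
Share of the UMIs of each gene (percent of all deposited UMIs of the gene, whose number stands above the bar) in keratinocytes within the limits (blue), other cells within the limits (green) and barcodes outside the limits (grey), for Ctrl (left) and AD (right). In Ctrl the blue part is the largest of every bar, while in AD the grey part exceeds the blue one for every gene except Alox12b, whose 6 UMIs lie in 1 cell.

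Of 83 other genes of barrier lipid metabolism and its regulators, 82 were in the gene list. Between the upper layers and the basal cells of Ctrl, 69 passed the floor, of which 36 were higher above the basal layer, 11 lower and 22 neither, with a median log2 ratio of 1.04 (1 CPM added) against −0.57 over all genes. Of all genes 12.9% were higher and 36.5% lower by this measure. The genes named from this list were chosen after their values were seen, and a value beside a name is its log2 ratio. Of 9 lipoxygenases and genes of the steps after them, 5 passed the floor and all 5 were higher. A gene with a low basal level could pass only through the upper layers, so the floor made a count as higher likely. Among the 5 were Alox12e at 5.75, the epoxide hydrolase Ephx3 at 6.54 and Tgm1, which crosslinks the envelope, at 5.79. Sdr9c7, also among them, acts on the oxidised ceramide and had 0 basal UMIs and 544 above. For acylceramide formation 3 of 4 were higher, with Dgat2 at 5.04, Nipal4 at 4.89 and Abhd5, the partner of PNPLA1, at 3.48. Acer1, the ceramidase of the differentiated epidermis, was higher by 7.49 and the lipase Lipm by 6.88.

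Sphingoid base and ceramide synthesis was divided, with 4 of 13 genes higher and 4 lower, where 12.9% of all genes were higher and 36.5% lower. Lower genes were thus no more common in this list than among all genes. Sptlc3, a subunit of serine palmitoyltransferase, was higher by 4.54 (3.89 to 5.28), while Cers4 was at 141 CPM in basal cells and 6.11 CPM above (−4.53, −5.05 to −4.05) and Cers2 was at −3.15. The ceramide synthases thus differed in opposite directions between the layers, with Cers3 higher and Cers4, Cers2 and Cers5 (−1.63) lower above the basal one. In sebocytes, where Cers3 had 0 UMIs, Cers4 was at 4866 CPM (8062 UMIs). Elongases were likewise unequal, with Elovl1 at 4.43 and Elovl7 at 4.37 higher and Elovl5 at −1.98 lower. Among regulators Ovol1 (5.84), Zfp750 (4.64), Grhl3 (4.62) and Grhl1 (3.64) were higher, and Trp63 (−1.89), the basal master factor, and Vdr (−2.05), the receptor that MC903 binds, were lower.

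**Figure D5:**
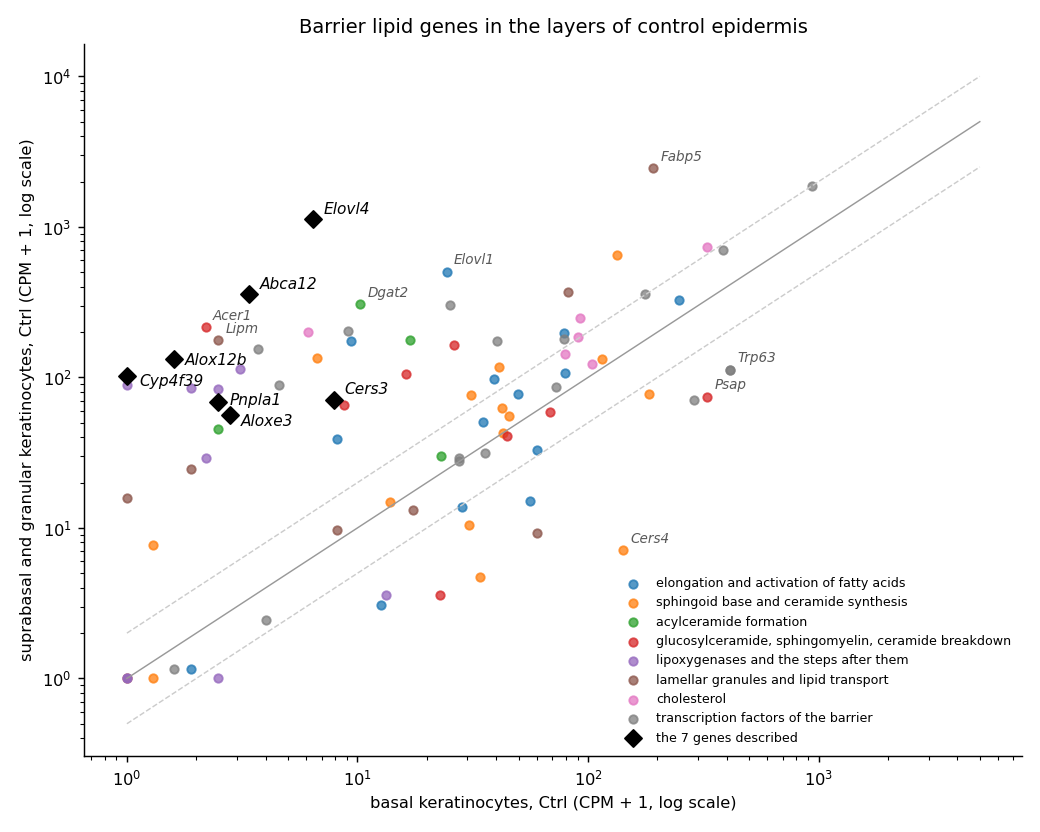
CPM + 1 in Ctrl basal cells (horizontal, log axis) against suprabasal and granular cells together (vertical, log axis) for the 7 genes (diamonds) and 82 other barrier lipid genes (circles, coloured by step). The solid line marks equal levels and the dashed lines 2-fold differences. All 7 diamonds lie above the upper dashed line, and Cers4 and Psap lie below the lower one.

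Between the libraries, 53 of the 82 other genes passed the floor in basal cells, of which 10 were lower in AD, 5 higher and 38 neither, against 15.3% lower and 7.45% higher of all genes, so the counts of this list were near those of all genes. Among the lower genes, Hmgcs1 (−1.28, −1.49 to −1.08) and Sqle (−1.05) act in sterol synthesis. Another 4 make or lengthen fatty acids, Elovl6 (−2.82, −3.56 to −2.17), Tecr (−1.47), Fasn (−1.39) and Hacd3 (−1.16). The fatty acid binding protein Fabp5 was at 191 CPM in Ctrl and 21.4 in AD (−3.16, −3.66 to −2.69). The 5 higher genes were Ovol1 (9 UMIs in Ctrl and 70 in AD, 3.84), Degs1 (1.32), Klf4 (1.26), Abca1 (1.22) and Kdsr (1.16). Over all keratinocytes 67 passed the floor, with 20 lower in AD and 1, Sgms2, higher, where 9.88% of all genes were lower and 5.08% higher. Acer1 (−3.78), Ephx3 (−3.49), Elovl6 (−3.25) and Lipm (−2.94) had the lowest ratios, and of these Acer1, Ephx3 and Lipm are among the genes of the Ctrl upper layers named above.

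Over 21 points, each a keratinocyte sub-cluster in 1 library with at least 20 cells (18 Ctrl and 3 AD), the genes whose log2 level followed the mean of the 7 most closely were Skint5 (Pearson r 0.96), Slurp2, Gng12, Skint10, Rab18, Prdx5, Skint6, Ly6g6e, Dkkl1 and Gm20627 (0.912), of 8933 genes. Skint5, Skint6 and Skint10 belong to a family of immunoglobulin-like genes of the skin, and Slurp2 and Ly6g6e to the Ly6 family. Among the 7 themselves, Alox12b and Aloxe3 were the closest pair (0.872), followed by Elovl4 with Cyp4f39 (0.838), and Cers3 and Elovl4 were the least alike (0.225). The points share 2 libraries and differ in depth, so these are descriptions without a test.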

How the data were processed

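Single-cell suspensions of dorsal skin, made with collagenase D and DNase1 and freed of dead cells, were sequenced with a 10x 3′ kit. The authors aligned reads to mm10 and deposited 1 matrix of UMI counts per library. The matrix header names Cell Ranger 5.0.0, the submitters' processing notes name Cell Ranger 3.1.0 and Seurat 5.0. The deposited counts were used as they are.

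Following the methods, barcodes were kept that had between 200 and 6000 genes and no more than 10% of their UMIs from mitochondrial genes. Both libraries were normalised to 10000 UMIs per cell and clustered together (scanpy 1.11.5, leidenalg 0.10.2, 2000 variable genes, 30 principal components, 20 neighbours, Leiden resolution 1), without the 7 genes and the other barrier genes, 90 genes in all left out. Keratinocytes were clustered again. A cluster was named when at least 3 markers of a type were in at least 10% of its cells and over 2-fold above the lower quartile of clusters (10 CPM added), and when its 10 leading genes did not point to another type. Doublets were kept. Scrublet called 395 in Ctrl (3.47%) and 0 in AD, and whether it worked for AD was not tested.

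UMIs were summed per class. CPM have exact Poisson intervals, shares of cells Clopper-Pearson intervals, and ratios conditional exact intervals (95%, scipy 1.17.1). A count of 0 was given the limit of 3 counts. Ratios needed 20 cells on each side, a minimum chosen after the cell numbers were seen, as was the floor of 1 CPM for whole libraries. The calculation was tested on simulated counts. The planned ranking of named genes by AD over Ctrl in suprabasal cells could not be applied with 1 AD cell. The 7 genes and the lists were chosen with earlier results of these data known. With 1 library per condition, nothing measures the spread between mice. Some genes of the lists are not reported here by name.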

Additional observations from a re-analysis of the deposited data

Results flagged for a closer look

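Barcodes outside the limits of the methods entered no class of the report, and in AD they held 61.2% of the UMIs of the 7 genes (947 of 1548), against 21.3% in Ctrl (5761 of 27066). The AD UMIs lay mostly in 229 barcodes with over 6000 genes, with a median of 52391 UMIs each. Keratinocytes were 125 of the 599 removed AD barcodes and held 773 of these UMIs, 333 of Abca12 and 337 of Elovl4. A further 150 Elovl4 UMIs lay in removed AD barcodes of unnamed clusters. In Ctrl, 376 removed keratinocytes held 5540 UMIs, of which 4484 were Elovl4. The cause was not tested.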

How the results depend on the processing

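No paired analysis was possible because each condition has 1 library, and for the same reason no library could be left out. The log2 ratio of the summed genes in basal cells, AD over Ctrl (−0.55), was −2.56 with classes set by keratins, −1.45 without predicted doublets and −2.34 with all deposited barcodes. The ratio of upper layers over basal cells in Ctrl (6.68) was 2.39, 5.69 and 5.07 in the same order, and 5.26 with each library clustered alone. Over all keratinocytes (−3.40) it was −2.72 with all barcodes and −2.84 as the mean of each cell's own CPM. No ratio of the sum changed sign. The keratin classes by construction put most follicle cells on the basal side and placed sebocytes, which had more Krt14 than Krt10, by the same rule. The cause of the differences between settings was not tested. Across 12 to 13 settings the ratio of upper layers over basal cells ranged from 1.83 to 7.70 for Elovl4 and from 2.25 to 3.38 for Cers3, and no gene was below 0.

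With a floor of 50 CPM, 4 rather than 7 genes were higher above the basal layer and 2 rather than 5 lower in AD keratinocytes, and the latter count was also 2 with the mean of each cell's own CPM. At 3-fold, 2 rather than 5 were higher in granular than suprabasal cells. This step had no value at Leiden resolutions of 0.5 and 2 for the keratinocytes. Ctrl had 0 and 12 granular cells there, under the minimum of 20. For whole libraries 2 rather than 6 were lower with 10 CPM added or a floor of 5 or 10 CPM, settings added after the data were seen. Keratinocytes held 71.1% of the AD UMIs, not 54.6%, with all barcodes. For single genes, 55 of 83 ratios between layers and 65 of 75 ratios between libraries in basal cells stayed within the counting interval, and all 14 shares of cells moved when cells were thinned. Comparing the libraries above the basal layer gave no value except with each library clustered alone, where 46 AD cells were named suprabasal and the ratio of the sum was −3.53 (−3.74 to −3.33). Of these 46 cells, 30 were upper follicle-like in the joint clustering, and they had 5969.8 CPM of Krt14 and 2119 of Krt10. In the same setting 0 AD cells were named basal, so the basal ratio between the libraries had no value there. With the 185 AD basal cells of the joint clustering a gene at 0 could be as high as 1.65 CPM.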
